A study of Mus musculus with 6 samples.

Results

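The Bcl2 family members described here are 10 genes that set whether a cell dies by the mitochondrial route: the anti-apoptotic genes Bcl2, Bcl2l1 and Mcl1, the pro-apoptotic effectors Bax and Bak1, and the BH3-only genes Bcl2l11, Bid, Bad, Bbc3 and Pmaip1. They were taken by gene name from the array files, which name 34844 genes or transcripts, and 14 probes carried one of their names. Each probe is shown apart. The tissue was the interzone, the band of condensed cells where a synovial joint will form, from mouse embryos at 15.5 days of gestation. The outer interzone, which lies next to the cartilage, and the intermediate interzone, which lies between the outer layers, gave 3 samples each, with 1 embryo per replicate. No genotype, strain or treatment was given for either group, and the sources used here do not say how the layers were dissected apart. Amplified, Cy3-labelled cRNA of each sample was read on its own one-colour Agilent array.

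Bcl2 family proteins meet at the outer mitochondrial membrane. Bax and Bak form pores that let cytochrome c out and start the caspase cascade, Bcl-2, Bcl-xL (the Bcl2l1 product) and Mcl-1 hold them in check, and BH3-only proteins, induced or activated by stress, block the guardians or activate the effectors directly. In mouse embryos, death through Bax and Bak helps to clear the web between the digits. Transcript levels say nothing of cleavage, phosphorylation or binding, which control several of these proteins.

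Levels are log2 of a spot's processed signal divided by its array's 75th percentile, so 1 unit is 2-fold, and differences are outer minus intermediate. The 75th percentile was 47.4 to 290 on the outer arrays and 144 to 344 on the intermediate arrays, and outer replicate 1 was the dimmest array, with 35.6% of its spots well above background, where the remaining 5 arrays had 45.1% to 53.4%. Saturation was found on 0 spots. Gdf5, the growth factor gene that defines the interzone, was abundant in both layers (its brighter probe averaged 5.69 in either layer, with SDs of 1.07 in the outer and 0.888 in the intermediate layer). Other interzone and early joint genes differed between the layers. Of 7 such genes tested, 2 were called higher in outer samples, Wnt4 (3.48 and 3.41) and Erg (0.95 on its called probe). Gdf6 was called lower (-1.77) and was above background on 2 of 3 outer arrays. Cartilage markers were higher in the outer interzone for 10 of 11 genes tested (summed linear level 657 to 929 in the outer and 76.2 to 142 in the intermediate layer). Leukocyte markers were lower for 11 of 13 genes (53.7 to 131 and 100 to 165) and endothelial markers for 7 of 8 (51.8 to 73.8 and 90.3 to 106). Every gene of these 3 lists was above background on at least 1 outer array. However, called probes of Emr1, Mrc1, C1qa, Laptm5 and Emcn were so on only 2 of 3 outer arrays. Tek was above background on 1 outer array, and the Cx3cr1 probes on 1 and 2. Their intermediate levels all lay above -1.82, the lowest signal well above background on outer replicate 1. These genes thus count as lower, but how much lower was not measured on the dim arrays. The sums take each gene's brightest probe, and for Itgam and Kdr that probe went the other way (0.76 and 0.82, neither called). Kdr counts as lower through its dimmer probe (-2.30), so these sums blur the difference. Erythroid markers were called for 0 of 6 genes tested (111 to 1380 and 724 to 2010; 0 of 7 probes at unadjusted p under 0.05 by limma), and neural markers were lower for 1 of 2 (0.923 to 1.33 and 3.88 to 4.49), with Stmn2 and Tubb3 not well above background in outer samples. Proliferation markers were called for 0 of 8 genes tested (145 to 168 and 116 to 142), with 1 of 12 probes at unadjusted p under 0.05 by limma. Of all 23873 tested probes, 4857 were at unadjusted p under 0.05 by limma. The part of these cell types in the results on Bcl2 family genes was not tested, and in such bulk samples fewer cells of a type and less RNA per cell cannot be told apart.

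The array reads each gene through probes of 60 bases, and 4 genes had a pair of probes (Bcl2l1, Mcl1, Bcl2l11 and Bad). The 4 probe sequences below, copied from the array files, are shown because they carry the one called difference (Bcl2), the larger Bad difference, the dimmer reading of Bcl2l1, and the brighter of the untested Bcl2l11 readings. Capitals mark the longest run of bases that the probe shares with any other Bcl2 family probe. These runs were 6 bases for Bcl2 and 7 for the other 3, and at most 10 between any pair of the 14 probes.
Bcl2 probe (chr1:108608970-108609029, mm9, minus strand): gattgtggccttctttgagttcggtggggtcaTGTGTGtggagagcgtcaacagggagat
Bcl2l1 probe at transcript position 674 (chr2:152655185-152655244, mm9, minus strand): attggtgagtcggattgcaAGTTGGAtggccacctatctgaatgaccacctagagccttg
Bcl2l11 probe at transcript position 682 (chr2:127972893-127983988, mm9, plus strand): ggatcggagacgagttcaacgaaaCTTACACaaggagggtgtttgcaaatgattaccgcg
Bad probe at transcript position 573 (chr19:7016918-7017403, mm9, plus strand): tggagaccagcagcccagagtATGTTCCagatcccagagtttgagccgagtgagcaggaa
The Bcl2l11 and Bad probes cover 11096 and 486 genomic bases with 60 bases of sequence, so each crosses a splice junction. Positions are those of the array files, counted along the target transcript. For Mcl1, whose probes lie at 1928 and 3240, the gap of 1312 bases was the same in the genome. Annotation of exons and UTRs was not used here.

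Bcl2 was higher in the outer interzone, and it was the only one of the 11 tested probes that passed the threshold of adjusted p 0.05. Bcl2 encodes the founding member of the family, a guardian that holds Bax and Bak in check. Its level was 0.82, 1.47 and 0.56 on outer replicates 1, 2 and 3, against -0.53, -0.27 and -0.44 on intermediate replicates 1, 2 and 3. All 3 outer arrays lay above all 3 intermediate arrays, with outer replicate 2 the highest, and the probe was well above background on all 6. The means were 0.95 ± 0.47 in outer and -0.41 ± 0.13 in intermediate samples (SD, n = 3 each), that is 1.36 higher with SE 0.26, or 2.57-fold (95% interval 1.68 to 3.93; limma adjusted p = 0.0412). Over all 23873 tested probes, 3.49% were called, 1.33% as higher and 2.16% as lower in outer samples (317 and 515 probes, or 183 and 1174 with each array scaled to its median). Outer and intermediate arrays did not overlap for 26.2% of all tested probes, 14.8% with the outer arrays above and 11.4% with them below. The difference stood 1.28 above the median of all tested probes, which lay at 0.09.

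The Bcl2 call was a narrow one. The difference was positive under all 18 alternative settings and left-out arrays, between 0.96 and 1.56, but it passed the threshold in 6 of them and missed it in 12. These are not 18 separate checks, since all reuse the same arrays and the authors' values repeat the array-median scaling. With the replicate number as a block the adjusted p was 0.0352, in a fit that called 1725 of all tested probes in place of 832. With slide as a block, or within the slide that holds outer replicate 1 and the 3 intermediate arrays, the difference was 1.23. The other slide holds outer arrays only, so both fits give the same estimate, which rests on outer replicate 1. Scaling each array to its median, as the authors' values are scaled, gave 0.97 (adjusted p = 0.123). Without the dim outer replicate 1 it was 1.43 (adjusted p = 0.062), without outer replicate 3 it was 1.56 (adjusted p = 0.0695), and without intermediate replicates 1, 2 and 3 in turn it was 1.30, 1.43 and 1.35 (adjusted p = 0.135, 0.0935 and 0.156). Leaving out outer replicate 2, which had the highest level (1.47), lowers the difference below 1.36, within the range given above. The unscaled signal was 83.6, 802 and 221 on the outer arrays against 99.8, 220.5 and 254 on the intermediate arrays, so the separation appears only once each array is scaled to its own brightness. The array names 1 of the 2 RefSeq mRNAs of Bcl2 for this probe, and whether the probe also reads the other was not tested.

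**Figure D1:**
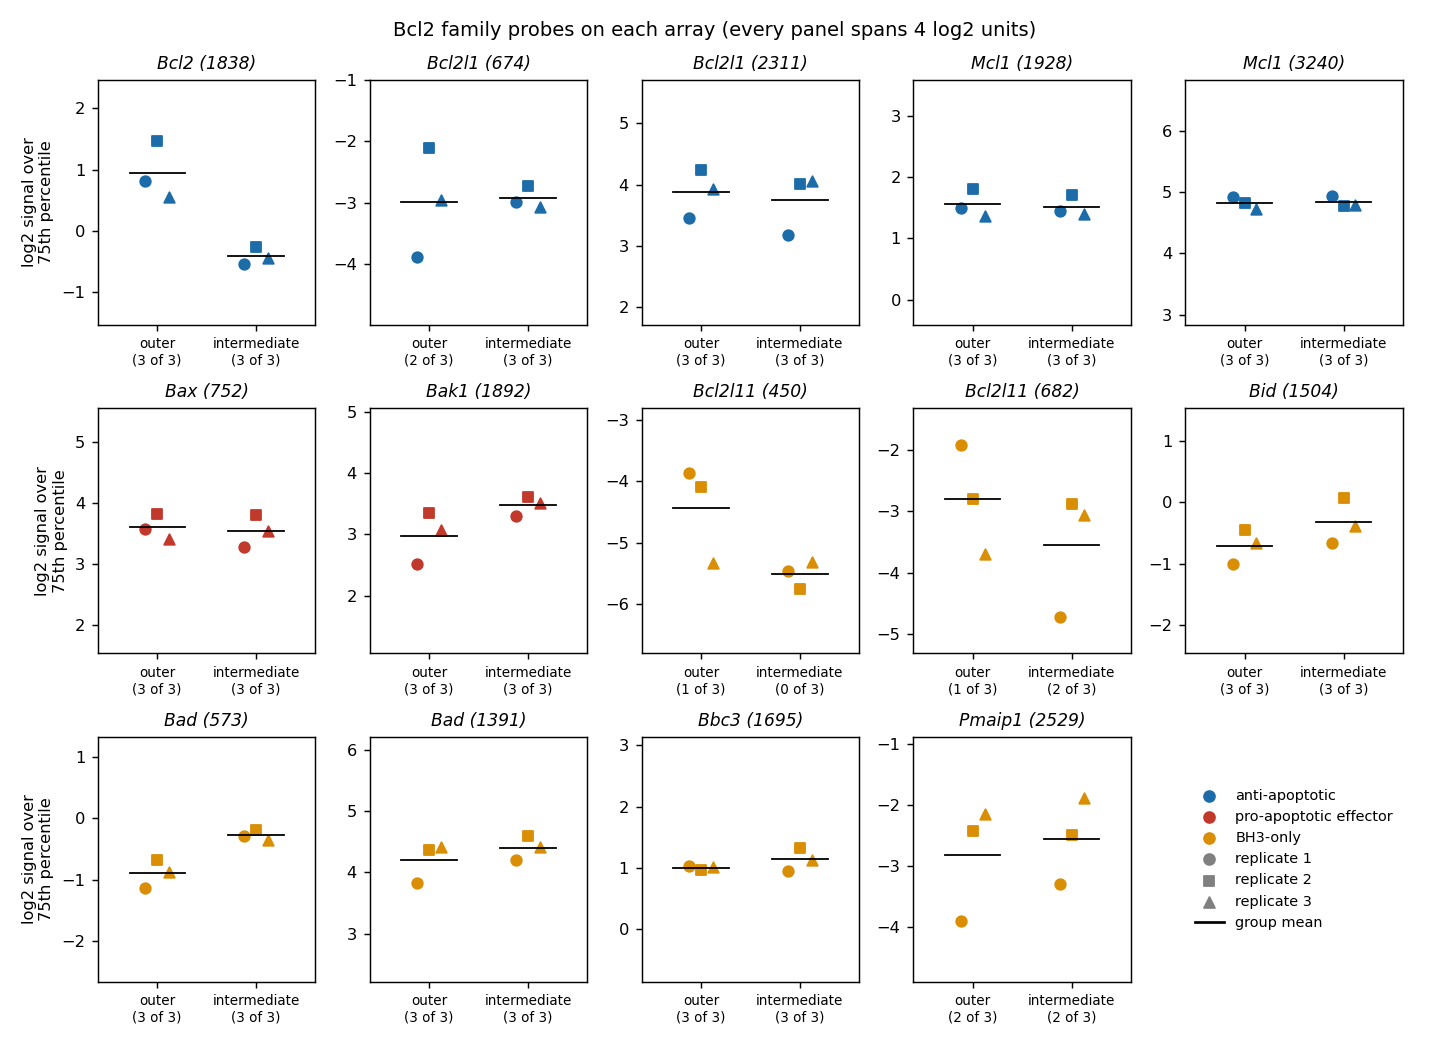
Level of each of the 14 Bcl2 family probes on each array (log2 signal over the array's 75th percentile), outer interzone left and intermediate right, with the probe's transcript position in parentheses, a line at the group mean, and below each group the number of arrays on which the probe was well above background. Outer Bcl2 levels lie between 0.56 and 1.47, above the intermediate levels of -0.53 to -0.27, while the groups overlap in every other panel except Bad at position 573.

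The other anti-apoptotic genes showed no called difference. Mcl1, a short-lived guardian of the family, was read by 2 probes with narrow spread. At position 3240 (chr3:95466855-95466914) it stood at 4.92, 4.82 and 4.73 on the outer arrays, against 4.94, 4.77 and 4.80 on the intermediate arrays. The difference was -0.01 (95% interval -0.40 to 0.37; adjusted p = 0.971). At position 1928 (chr3:95465543-95465602) the levels were 1.50, 1.81 and 1.37 in the outer and 1.44, 1.70 and 1.40 in the intermediate layer, a difference of 0.05 (95% interval -0.41 to 0.51; adjusted p = 0.916). The arrays of the groups overlapped for both Mcl1 probes.

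Bcl2l1, which encodes the guardian Bcl-xL and, by alternative splicing, a shorter form that promotes death, varied more between replicates than between layers. At position 2311 (chr2:152606404-152606463) its level was 3.45, 4.25 and 3.93 in the outer and 3.18, 4.02 and 4.06 in the intermediate layer. Replicate 1, whose arrays were the dimmest of each group, had the lowest value in both layers. The difference was 0.12 (95% interval -0.62 to 0.87; adjusted p = 0.86). At position 674 the signal was near background, at -3.88, -2.10 and -2.96 in the outer and -2.99, -2.73 and -3.07 in the intermediate layer, and outer replicate 1 was not well above background. That probe differed by -0.05 (95% interval -1.04 to 0.94; adjusted p = 0.959), so its interval takes in a 2-fold change downward. Which of the spliced forms each probe reads was not tested.

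The effectors Bax and Bak1 did not pass. Bax was similar on every array, at 3.57, 3.82 and 3.42 in the outer against 3.28, 3.80 and 3.54 in the intermediate layer (chr7:52717122-52717181), a difference of 0.06 (95% interval -0.43 to 0.56; adjusted p = 0.893). Bak1 stood at 2.51, 3.35 and 3.08 in the outer against 3.31, 3.61 and 3.51 in the intermediate layer (chr17:27156807-27156866). Its outer values reached lower, with replicate 1 the lowest, and the groups overlapped narrowly, between 3.31 and 3.35. The difference was -0.50 with SE 0.25 (95% interval -1.09 to 0.09; adjusted p = 0.317). With slide as a block, where it rests on outer replicate 1, the Bak1 difference was -0.97 (adjusted p = 0.0775).

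None of the BH3-only genes was called, and the 4 tested probes of these genes, 2 of them of Bad, all had point differences below 0. Among all 23873 tested probes, 9843 had a point difference below 0. Bad, whose product binds Bcl-2 and Bcl-xL and is switched off by survival kinases, gave the clearest separation. At position 573 its level was -1.14, -0.67 and -0.87 in the outer, against -0.28, -0.20 and -0.36 in the intermediate layer. All 3 outer arrays lay below all 3 intermediate arrays, as in 11.4% of all tested probes. The difference was -0.62 with SE 0.19 (95% interval -1.06 to -0.18), with an unadjusted p of 0.0128 and an adjusted p of 0.132, and the adjusted p ranged from 0.0694 to 0.494 over its alternatives. The brighter Bad probe, at position 1391 (chr19:7026323-7026382), stood at 3.83, 4.37 and 4.42 in the outer against 4.20, 4.60 and 4.41 in the intermediate layer, overlapping, and differed by -0.20 (95% interval -0.73 to 0.33; adjusted p = 0.661). The gap between the 2 Bad probes was thus 5.10 in the outer and 4.68 in the intermediate layer on average, and the array names the same 1 of the gene's 2 RefSeq mRNAs for both.

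Bid, which links death receptors to mitochondria once caspase-8 cuts its product, stood at -1.0, -0.45 and -0.66 in the outer and -0.65, 0.08 and -0.39 in the intermediate layer (chr6:120843464-120843523). In each numbered pair of samples the outer value was the lower, but the groups overlapped. The difference was -0.38 (95% interval -0.98 to 0.21; adjusted p = 0.442, and 0.13 with the replicate block). Bbc3, the gene of the p53-induced protein Puma, was nearly constant in the outer interzone, at 1.02, 0.97 and 1.01, against 0.95, 1.33 and 1.13 in the intermediate layer (chr7:16903403-16903462). It differed by -0.14 (95% interval -0.55 to 0.27; adjusted p = 0.699).

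Bcl2l11 and Pmaip1 were too dim to test. Bcl2l11 encodes Bim, a BH3-only protein that binds all the guardians, and Pmaip1 encodes Noxa, which pairs with Mcl-1. Bcl2l11 at position 682 was well above background on 1 outer and 2 intermediate arrays, with levels of -1.91, -2.79 and -3.70 in the outer and -4.72, -2.87 and -3.05 in the intermediate layer. At position 450 (chr2:127954736-127955417) it was above background on outer replicate 2 alone, with -3.85, -4.09 and -5.33 on the outer arrays against -5.46, -5.75 and -5.32 on the intermediate arrays. Pmaip1 (chr18:66625088-66625147) was above background on 2 arrays of each group, at -3.89, -2.43 and -2.14 in the outer and -3.29, -2.49 and -1.88 in the intermediate layer, and replicate 1, whose arrays were the dimmest of each group, had the lowest value in both. The groups overlapped for all 3 of these probes, and values so close to background carry no order.

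**Figure D2:**
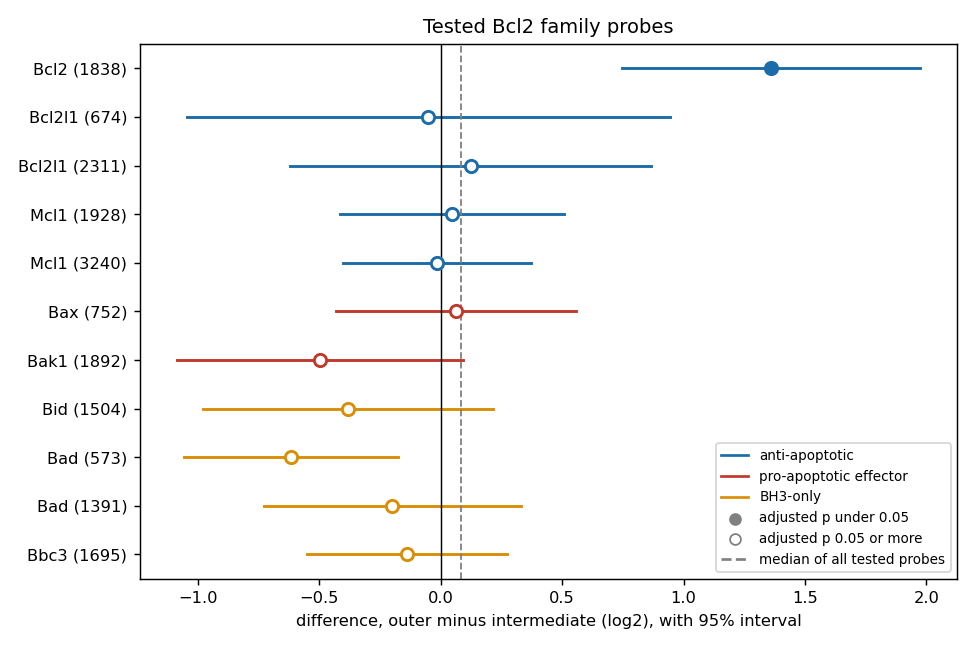
Difference between outer and intermediate interzone (log2) for the 11 tested Bcl2 family probes, with 95% intervals from limma; transcript positions are in parentheses and the dashed line is the median of all tested probes, 0.09. Bcl2 is the filled point at 1.36, and the intervals of the other probes reach across 0 except for Bad at position 573 (-1.06 to -0.18), whose adjusted p was 0.132.

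Set side by side, the anti-apoptotic probes had a median difference of 0.05 and the pro-apoptotic probes one of -0.29, beside 0.09 over all tested probes. Of 5 anti-apoptotic probes, 1 was called higher and 0 lower, with point differences from -0.05 to 1.36. Of 6 tested pro-apoptotic probes (2 of effectors, 4 of BH3-only genes), 0 were called in either direction by limma, and point differences ran from -0.62 to 0.06. Of these 6, 1 had an unadjusted p under 0.05 by limma (Bad at position 573), beside 4857 of all 23873 tested probes. The point differences of Bak1, Bid, Bad and Bbc3 stayed below 0 under every alternative run for them, whereas those of Bax, Mcl1 and Bcl2l1 changed sign between alternatives. All alternatives reuse the same arrays. Scaling to the array median moved the median of all tested probes to -0.31 and those of the anti- and pro-apoptotic probes to -0.34 and -0.68, so relative to all probes they stayed at -0.04 and -0.38. Of the 11 tested probes, 10 were well above background on all 6 arrays, and Bcl2l1 at position 674 passed the filter through the intermediate group alone.

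A ratio of probes within an array does not depend on the constant by which the array is scaled, but quantile normalization or background correction can change it. Bax minus Bcl2 was 2.75, 2.35 and 2.86 in the outer, against 3.81, 4.06 and 3.97 in the intermediate layer, so the mean ratio was 1.30 log2 units lower in the outer interzone. The ratio was lower on every outer array than on any intermediate array, and of the probes themselves Bcl2 differed by 1.36 and Bax by 0.06. Bak1 minus Bcl2 was 1.69, 1.88 and 2.52 in the outer and 3.84, 3.88 and 3.95 in the intermediate layer. The mean of the 6 tested pro-apoptotic probes minus that of the 5 anti-apoptotic probes was 0.10, -0.15 and 0.20 in the outer and 0.59, 0.70 and 0.62 in the intermediate layer. With Bcl2 left out it was -0.03, -0.30 and -0.04 in the outer and 0.16, 0.26 and 0.18 in the intermediate layer, which narrowed the difference of means to -0.32, against -0.59 with Bcl2. The anti-apoptotic means include Bcl2l1 at position 674, which was not well above background on outer replicate 1. These ratios are a description of members chosen with earlier results known and carry no test, and they compare arrays, not the amounts of the proteins. All but the last contain the called Bcl2 probe, and no such ratio was computed for other sets of probes.

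**Figure D3:**
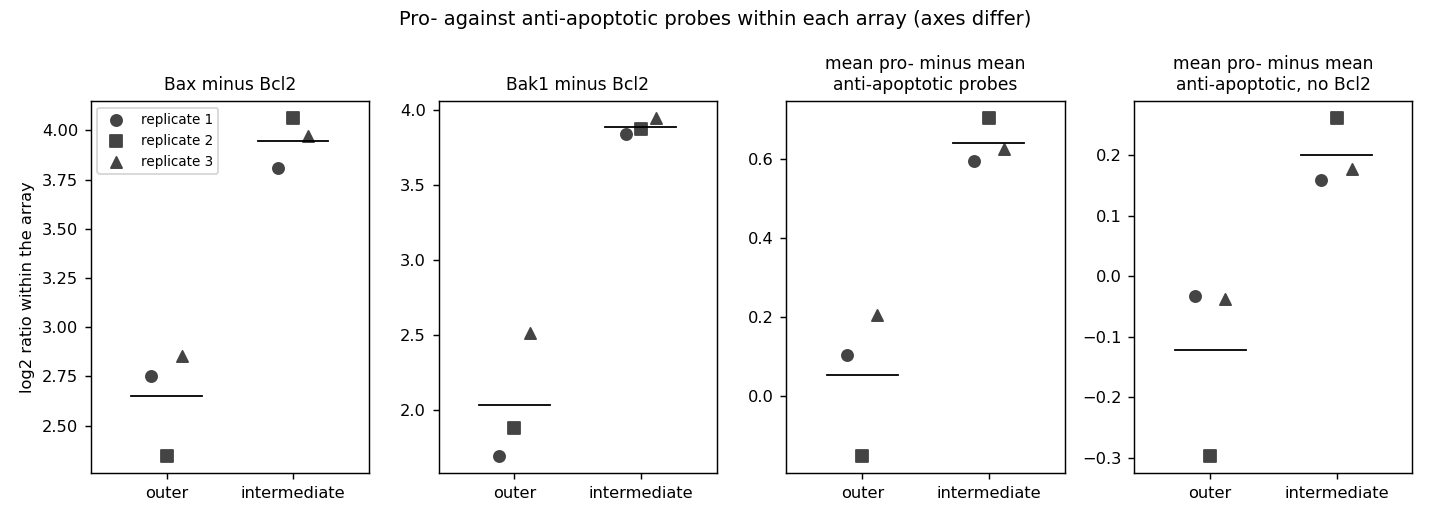
Within-array log2 ratios of pro- over anti-apoptotic probes on each array, outer interzone left and intermediate right, with lines at the group means and separate axes per panel. The outer arrays lie below the intermediate arrays in all 4 panels, by 1.30 on average for Bax minus Bcl2 and by 0.32 for the class means with Bcl2 left out. Every panel but the last contains the called Bcl2 probe, so the panels are not separate results.

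Among all tested probes, the 3 genes with a symbol whose profile over the 6 arrays was closest to that of Bcl2 were Ccnd1, Lgr4 and Apba2, with root mean square differences of 0.159, 0.167 and 0.187 after centring. Ccnd1, the gene of cyclin D1, stood at 4.40, 4.91 and 4.49 in the outer and 3.02, 3.27 and 3.28 in the intermediate layer, a difference of 1.41. Lgr4, a receptor for R-spondins, differed by 1.53 and Apba2, an adaptor that binds the amyloid precursor protein, by 1.56. These genes were chosen for the shape of their profile, so their agreement over the arrays is a description.

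**Figure D4:**
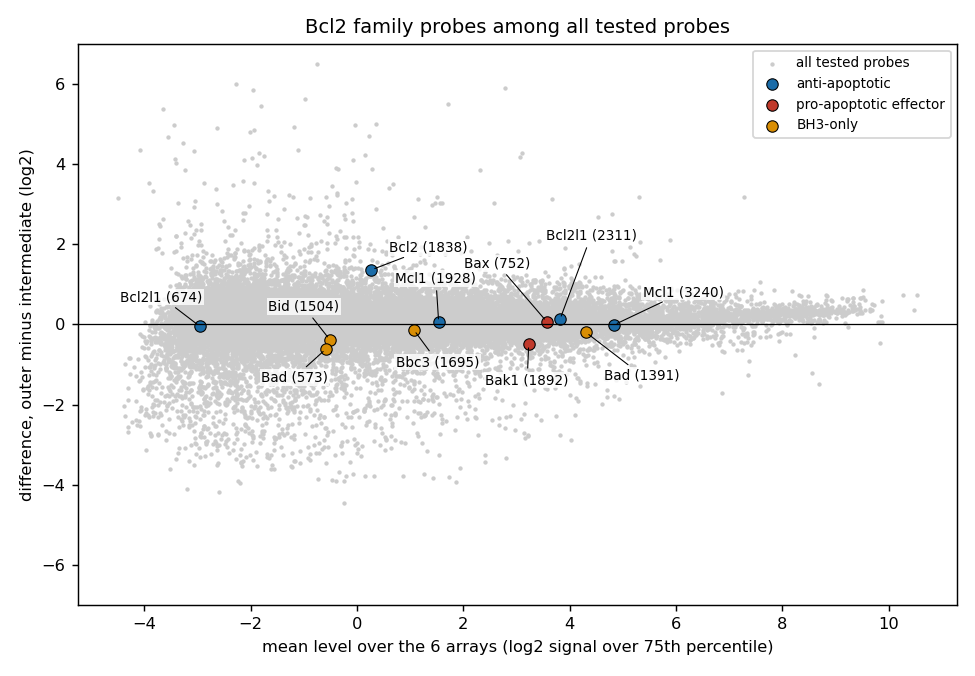
Difference between outer and intermediate interzone (log2) against mean level over the 6 arrays for all 23873 tested probes (grey) and the 11 tested Bcl2 family probes (coloured by class, transcript position in parentheses). Bcl2 lies at 1.36, in the upper part of the cloud at its level with other probes above it, and the other members lie between -0.62 and 0.12.

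Among cell death genes outside the 10 members, the calls of the fit without a block fell on 3 genes, Bnip3, Bik and Naip2. Of 73 genes in 6 lists, 63 were tested with 86 probes, and 2 probes were higher and 2 lower in outer samples, beside the 3.49% called over all probes. At unadjusted p under 0.05 by limma there were 12 of the 86, beside 4857 of all 23873 tested probes. The split was 0 higher and 4 lower with array-median scaling and with the authors' values, and 3 higher and 3 lower with the replicate block. With array-median scaling 28 of the 86 were at unadjusted p under 0.05 by limma, beside 5258 of all 23873. The median difference of the 86 probes was 0.07. The 2 probes called higher both belong to Bnip3, a BH3-related gene known for hypoxia response and mitophagy. Bnip3 at position 1455 (chr7:146082760-146082819) stood at 5.98, 5.66 and 5.35 in the outer and 3.80, 4.62 and 3.79 in the intermediate layer, a 3.02-fold difference (adjusted p = 0.0354). Its probes at positions 1575 and 1679 were 2.82-fold and 2.48-fold higher (adjusted p = 0.0459 and 0.0671), and for each of the 3 the outer arrays lay above the intermediate arrays. The 2 called probes missed the threshold under 10 and 12 of their alternatives, the array median among them (adjusted p = 0.0524 and 0.0898). The close relative Bnip3l differed by 0.23 to 0.29 on its 4 probes, none of them called.

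Bik, a BH3-only gene, was called lower in the outer interzone, but 2 of the 3 outer values were not well above background. The levels were -4.12, -4.05 and -4.56 on the outer arrays, with replicate 2 alone above background, and -2.54, -2.91 and -2.59 on the intermediate arrays. The fitted difference was -1.57 (adjusted p = 0.0166; chr15:83374048-83374107). The lowest signal well above background lay at -1.82 on outer replicate 1, above all 3 intermediate values, so that array could not have shown a lower level, and the size of the difference is uncertain. With normexp background correction it was -0.50 (adjusted p = 0.0607). The Bik call was lost under 7 of 17 alternatives, also with quantile normalization without and with the replicate block (adjusted p = 0.0725 and 0.0932), without a filter (0.195), and without outer replicate 3, intermediate replicate 1 or intermediate replicate 3 (0.066, 0.067 and 0.0837). Bcl2a1d, a guardian gene of leukocytes, was above background on 2 of 3 outer arrays and did not pass, at -2.47 (adjusted p = 0.105), beside leukocyte markers that were lower for 11 of 13 genes; their part in this value was not tested.

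Caspase inhibitors gave 1 call among 13 tested probes, beside 3.49% called over all tested probes. Naip2, of a family of near-identical copies known for sensing bacteria in macrophages, stayed below the background limit on all 3 outer arrays and was at least 2.34-fold lower there, with measured means of -4.36 in the outer and -2.11 in the intermediate layer (adjusted p = 0.0259; chr13:100914212-100914271). With normexp background correction the Naip2 difference was -0.66 (adjusted p = 0.0495), smaller than that bound. The Naip2 call was lost under 7 of 17 alternatives, with adjusted p = 0.0754 with slide as a block and 0.0952, 0.0836 and 0.113 without outer replicate 3, intermediate replicate 2 and intermediate replicate 3, and leukocyte markers moved with it; their part was not tested. Its copies can share signal, and its relative Naip5 differed by 0.35 (adjusted p = 0.499). Birc5, the gene of survivin, differed by 0.23 to 0.30 on 3 probes and Xiap by 0.02, none of them called.

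The machinery downstream of the mitochondria gave 0 calls by limma among 22 probes of 17 genes (2 at unadjusted p under 0.05), with a median of 0.05. Over all 23873 tested probes, limma called 3.49% and had 4857 at unadjusted p under 0.05, so lists this short can hold few calls. The initiator caspase gene Casp9 differed by 0.05 and its scaffold Apaf1 by -0.09. Casp8, the caspase of death receptors, came nearest to a call, at -0.72 (adjusted p = 0.0809). Vdac1 and Vdac3, channels of the outer mitochondrial membrane, differed by 0.15 and -0.02 (adjusted p = 0.674 and 0.976). Of 11 probes for death receptors and adaptors limma called 0 (2 at unadjusted p under 0.05), with a median of -0.34. Tnfrsf1a differed by -0.41 and 0.06 on its 2 probes (adjusted p = 0.367 and 0.899), and Traf2 by 0.13 on its brighter probe (adjusted p = 0.70), while its dimmer probe was above background on only 2 of 3 outer arrays.

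The genes of p53 and its other targets, and of stress factors that act on BH3-only genes, were also without a call. Of 17 probes for p53 and its other targets limma called 0 (1 at unadjusted p under 0.05), with a median of 0.23. Beside this stand 3.49% called, and 4857 at unadjusted p under 0.05 by limma, of all 23873 tested probes. Trp53, which encodes p53, differed by 0.17, its target Cdkn1a by 0.03 and its regulator Mdm2 by 0.24 (adjusted p = 0.767, 0.978 and 0.475). Trp63 differed by 0.69 on its only tested probe (adjusted p = 0.406), and its other probes were not above background on any outer array. Of 8 probes for stress factors limma called 0 (and 0 at unadjusted p under 0.05), with a median of -0.02. Atf4 differed by -0.26 and 0.07 on its 2 probes and Jun by -0.08 (adjusted p = 0.675, 0.851 and 0.934). Foxo3, a transcription factor that induces Bcl2l11, was too dim to test.

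**Figure D5:**
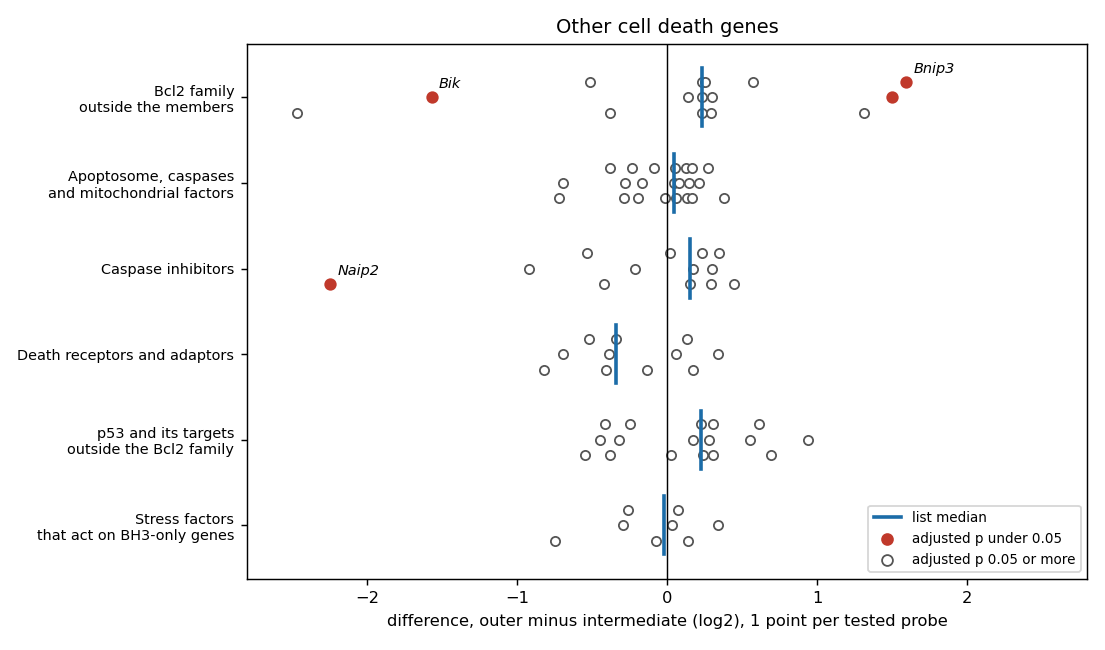
Difference between outer and intermediate interzone (log2) for each tested probe of 6 lists of other cell death genes, with a line at the list median and filled points for the 4 called probes. Bnip3 lies at 1.50 and 1.59, Bik at -1.57 and Naip2 at -2.25 on the measured scale, and the list medians lie between -0.34 and 0.23.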

How the data were processed

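Each scanner file deposited by the authors gives an intensity per spot, which, per the file headers, Feature Extraction 10.7.3.1 from Agilent computed with background and spatial trends removed (probe positions in mm9). Partek 6.11.0321 is named in the submitters' processing notes, without a role. The authors' table of intensities holds the same signals divided by 1 constant per array (spread at most 0.000785%), with a median of 1.

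The 59305 non-control spots were averaged per probe on the log2 scale without outlier spots (55681 probes, 9 without a value on some array), minus the array's 75th percentile. Probes with signal well above background throughout 1 group or both were tested with limma 3.58.1 in R 4.3.3 (two-sided, Benjamini-Hochberg over all tested probes, threshold 0.05). The method was tested on simulated data. Members are named by the files' gene names. In the wider lists, genes were named where called (at most 4 a list), or else the 2 brightest, and others named were chosen after their values were seen. The members and lists were chosen with earlier results of these data known.

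The design has no block. Over tested probes, deviations from the group means correlated between same-numbered samples, with r of 0.537, 0.477 and 0.358, so the numbers from the titles were taken to pair the samples. The blocked fit is given where it moves a count, but the probes that it newly calls among other cell death genes are not named. Outer replicate 1 shared a slide with the 3 intermediate arrays, and outer replicates 2 and 3 were on another. The 3 arrays per group limit the precision. A probe dim throughout 1 group has only a bound there: its fold is the bright group's mean over the dim group's mean of, per array, the lowest signal well above background or the probe's own, whichever is higher. Alternatives were other scalings, normexp background correction, other filters, replicate and slide blocks, a trended robust fit and leaving out each array.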

Additional observations from a re-analysis of the deposited data

How the results depend on the processing

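In place of 832 called probes (317 higher and 515 lower in the outer interzone), limma called 501 with quantile normalization, 1357 (183 and 1174) with scaling to the array median and with the authors' deposited values, 526 (280 and 246) with signal required on all 6 arrays, 1725 (839 and 886) with the replicate block, 49 (35 and 14) with quantile normalization and the replicate block together, 1558 with slide as a block, 1785 within the shared slide, and 0 without a filter (5734 at unadjusted p under 0.05). Leaving out 1 array gave 75 to 1243, the lowest without intermediate replicate 3. At unadjusted p under 0.05, limma had 4857 of all tested probes in the main fit and 4685 with quantile normalization. It had 5258 with array-median scaling and 6776 with quantile normalization and the replicate block together. The 1 called Bcl2 family probe became 0 with quantile normalization (3 at unadjusted p under 0.05), without a filter (1), and with array-median scaling, the authors' values, quantile normalization with the replicate block, slide as a block and the shared slide alone (4 each), and 0 to 1 when 1 array was left out. The 4 called probes of other cell death genes became 1 with quantile normalization, 2 with signal on all 6 arrays, 0 without a filter (12 at unadjusted p under 0.05), 0 with the replicate block on quantile-normalized values (25 at unadjusted p under 0.05), and 0 to 4 when 1 array was left out. The median of the anti-apoptotic probes moved to -0.34, and that of the pro-apoptotic probes to -0.68, with array-median scaling and the authors' values, and the pro-apoptotic median to -0.63 with slide as a block or the shared slide. Leaving out 1 array gave -0.06 to 0.34 and -0.42 to -0.14, with 0.34 without outer replicate 1. The replicate block changed no call among Bcl2 family probes. Both slide fits rest on outer replicate 1, whose low signal over background limits what could be measured there.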
